A study of Arabidopsis thaliana and Setaria viridis and Zea mays with 22 samples.

Results

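The pericycle is the outermost cell layer of the stele, the central cylinder of the root, and lies just inside the endodermis. In Arabidopsis its cells keep the ability to divide after their neighbours have stopped, and lateral roots begin from the pericycle cells next to the xylem poles. Like the rest of the stele it is enclosed by the outer tissues, which a wall-digesting enzyme mix meets first when protoplasts are made, whereas nuclei are set free by lysis.

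The cells described here are those that the authors' annotation calls 10_Pericycle in root tips of Arabidopsis thaliana Col-0. They number 1519 of the 32790 Arabidopsis cells in the deposited table, 712 of them protoplasts and 807 nuclei. The study set protoplasts (cells freed of their walls) beside nuclei of the same tissue, and the comparisons here ask how far the recovery and RNA content of the pericycle depended on that choice. There were 6 protoplast libraries, named ctr1, ctr3248V3, ctr4h, ctr914, ical1 and ical32hV3, and 3 nuclei libraries, Nuclei_1 to Nuclei_3. All were of 1 strain with no mutation or treatment given in the labels, from tips cut at 150 µm and collected 7 days after transfer, although the age tag reads 10 days. The sources do not explain the protoplast library names. Nor do they say whether each library had its own planting, so every p-value speaks of differences among libraries, which can be technical. The name could not be checked against marker genes, since the table gives for each cell only how many unique molecular identifiers (UMIs, tags that mark captured transcripts) and genes were found, and no gene by name. All cells called 10_Pericycle belonged to cluster 10 of 1 joint clustering of both preparations.

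Libraries held 1085 to 5396 cells and 16761417 to 138202792 UMIs in all. Protoplasts were listed from minima of 10002 to 15068 UMIs and nuclei from 1150 to 1211, so UMI levels are tested only within a library, and medians of different libraries, set side by side, also carry those minima. By the labels chemistry version 2 was used for protoplasts and version 3 for nuclei. Cell barcodes go against that split: ctr1 and ical1 shared 0 barcodes with the nuclei libraries, while the other 4 protoplast libraries shared 7 to 25. Preparation, chemistry version as labelled and UMI minimum cannot be told apart here, and shares too count only cells above those minima. Of the 36 pairs of libraries, 0 shared the barcode of a pericycle cell. In ical1 each cell was listed 2 times, and the first listing was kept.

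The share of pericycle cells separated the protoplast libraries into 2 that were rich in it and 4 that held almost none. It was 12.5% of ctr4h (299 of 2392 cells) and 8.60% of ctr914 (329 of 3827 cells). In the other 4 it was 1.06% of ctr1 (35 cells), 0.829% of ical1 (9 cells), 0.602% of ical32hV3 (20 cells) and 0.531% of ctr3248V3 (20 cells). In ctr4h the pericycle was the most abundant of the 17 named types, and in ctr914 it ranked 4, but in each of the other 4 libraries it ranked 15 or 16. The 95% Wilson intervals, which cover counting error only, were 11.2% to 13.9% in ctr4h and 7.75% to 9.53% in ctr914, and among the other 4 the highest bound was 1.57%, in ical1.

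Nuclei libraries lay between these extremes. Pericycle nuclei made up 7.81% of Nuclei_1 (402 nuclei), 4.10% of Nuclei_2 (187) and 4.04% of Nuclei_3 (218). All 3 exceeded the 4 poor protoplast libraries and fell below ctr4h and ctr914, so the preparations overlapped. The Wilson intervals of Nuclei_1 (7.11% to 8.58%) and ctr914 (7.75% to 9.53%) overlapped, so the order of these libraries is within counting error. Averaged over libraries, the share was 4.02% ± 5.21 in the protoplast group (SD, n = 6) and 5.32% ± 2.16 in the nuclei group (SD, n = 3), and the log2 fold from nuclei to protoplasts of −0.40 (SE 1.00) did not pass edgeR's quasi-likelihood test (adjusted p = 0.741 over 17 types, of which 35.3% were called). Protoplasts minus nuclei in mean log2 odds, which weights libraries equally, was −1.51 and was not called either (exact permutation p = 0.226). Leaving out ctr4h moved the edgeR fold to −1.17 and leaving out ctr914 to −0.77. Without both, which were picked for their high share so that no test is read, it was −2.83.

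**Figure D1:**
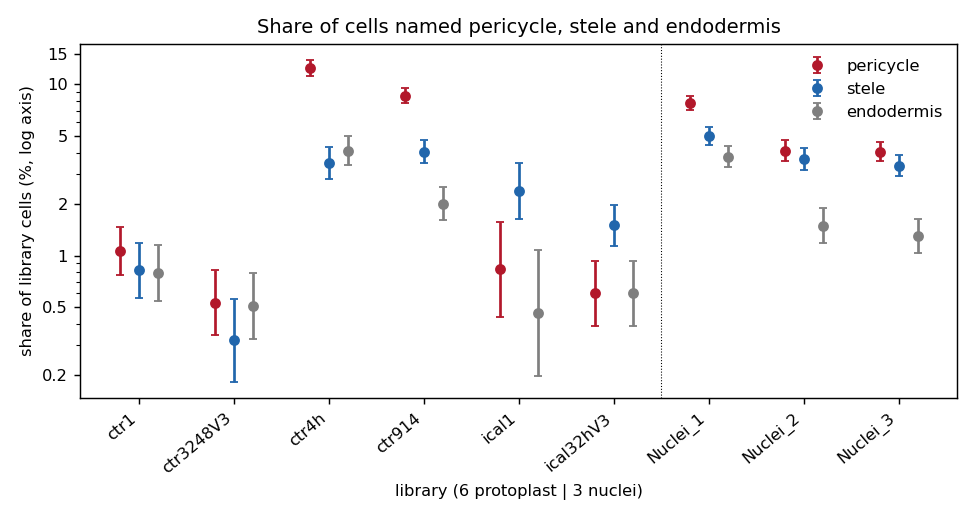
Share of library cells named pericycle, stele and endodermis in each library, in percent on a log axis, with 95% Wilson intervals (counting error only). Pericycle points reach 12.5% in ctr4h and 8.60% in ctr914 and sit near or below 1.06% in the other 4 protoplast libraries, with the 3 nuclei libraries at 4.04% to 7.81%.

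Among all types the pericycle had the widest spread between protoplast libraries. The SD of its log2 odds was 2.07, followed by 1.40 for the inner vascular cells named 17_Stele and 1.26 for 21_endodermis, the layer that encloses the pericycle. Between nuclei libraries the SD of its log2 odds was 0.58 and ranked 7 of 17. The highest protoplast share was 23.5 times the lowest, compared with 1.93 times among nuclei.

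Among protoplast libraries, stele and endodermis were also most frequent in ctr4h and ctr914. Stele took 3.47% of ctr4h and 4.05% of ctr914 but 0.319% to 2.40% of the other 4 protoplast libraries. Endodermis took 4.10% and 2.01%, compared with 0.461% to 0.790%. Pericycle, stele and endodermis together made up 20.1% of ctr4h and 14.7% of ctr914, and 1.35% to 3.69% of the remaining protoplast libraries.

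Depth, barcodes and cell-name suffixes are given beside this split, and their part in it was not tested. The median over all cells was 16709 UMIs in ctr4h, the lowest of the protoplast libraries, and 27603 in ctr914, the second highest. The 4 protoplast libraries that share barcodes with nuclei included the 2 highest pericycle shares and the 2 lowest, and neither of the other 2 was rich in pericycle. The names in ctr1 carry 2 suffixes, which the sources do not explain, with 23 pericycle cells of 1660 (1.39%) under the first and 12 of 1632 (0.735%) under the second, both far below ctr4h and ctr914.

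The balance of pericycle and stele split the protoplast libraries differently. Pericycle cells made up 78.3% of the cells named pericycle or stele in ctr4h, 68.0% in ctr914, 62.5% in ctr3248V3 and 56.5% in ctr1. They made up only 25.7% in ical1 (9 against 26 cells) and 28.6% in ical32hV3 (20 against 50). The upper Wilson bounds of these last 2, 42.1% and 40.1%, lay below the lower bound of every other library, the nearest being 44.1% in ctr1. In ctr1 and ctr3248V3 the pericycle was thus as rare as in the libraries named ical, but stele was rarer still, at 0.820% and 0.319% against 2.40% and 1.50%.

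In nuclei the balance was nearly even and varied little. Pericycle made up 60.9% of the 2 names in Nuclei_1, 52.7% in Nuclei_2 and 54.6% in Nuclei_3. The mean was 56.1% ± 4.30 in nuclei (SD, n = 3) and 53.2% ± 21.5 in protoplasts (SD, n = 6). In log2 odds, protoplasts minus nuclei came to −0.15, which an exact two-sided permutation test did not call (p = 0.893, adjusted p = 0.893 over 3 tests on pericycle and stele). The sign turned without ical1 (0.19) or without ical32hV3 (0.15).

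**Figure D2:**
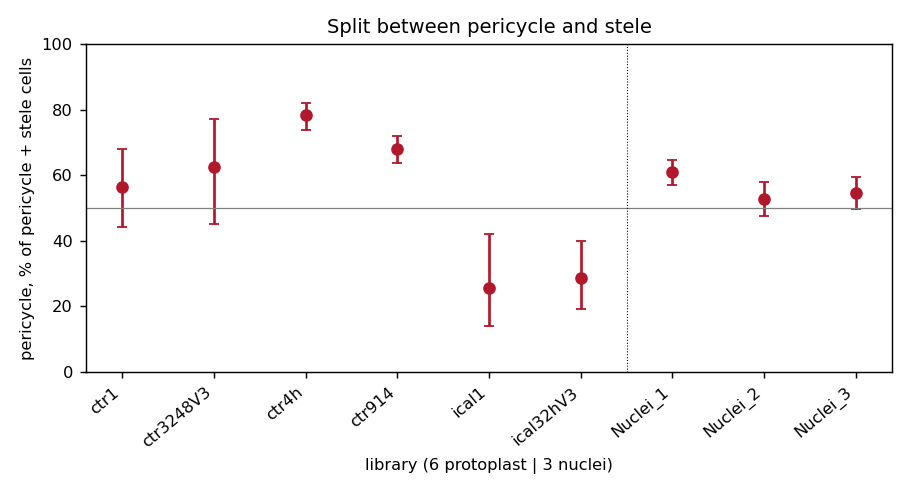
Cells named pericycle as a percentage of the cells named pericycle or stele, per library, with 95% Wilson intervals; the line marks 50%. ical1 and ical32hV3 lie at 25.7% and 28.6%, and the other 7 libraries at 52.7% to 78.3%.

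The second listing of ical1 named the same cells again, with equal UMIs and genes. Equal counts make equal names likely, so agreement between the listings says little about how stable the name is. Of the 9 cells named pericycle in the first listing, 8 kept the name and 1 became endodermis, and 1 endodermis cell became pericycle. All 26 stele cells kept their name. Over all types 1040 of 1085 cells kept theirs. The changes at the pericycle were thus 1 cell each way with endodermis and 0 with stele, too few to rank its neighbours.

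UMIs per pericycle cell varied widely. Median UMIs were 24228 in ctr1, 32184 in ctr3248V3, 18517 in ctr4h, 18821 in ctr914, 39220 in ical1 and 22391.5 in ical32hV3. In nuclei they were 2580.5, 3905 and 3123.5 in Nuclei_1, Nuclei_2 and Nuclei_3. The 2 libraries rich in pericycle had the lowest medians among protoplasts. Median detected genes followed the same pattern, at 3983 in ctr4h and 4461 in ctr914 against 5119.5 to 7079 in the other protoplast libraries, and 1773.5 to 2315 in nuclei.

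**Figure D3:**
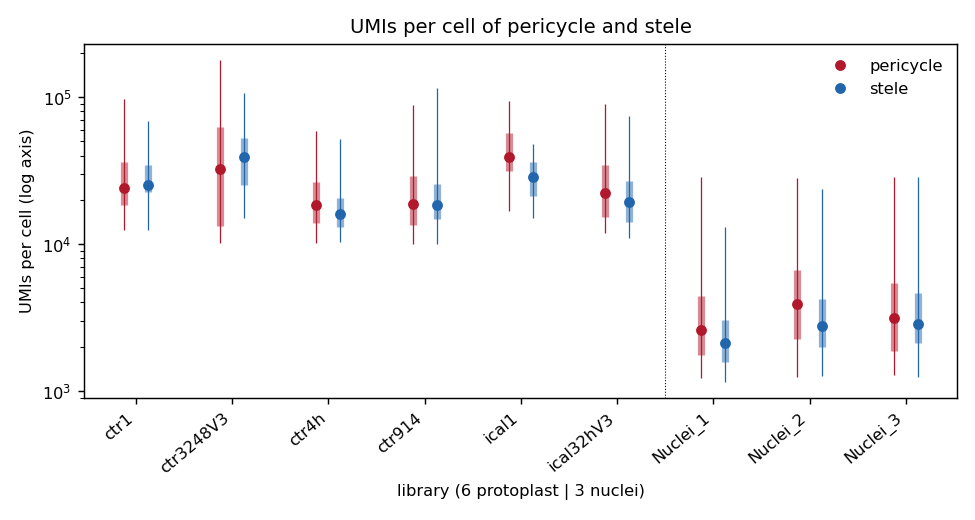
UMIs per cell of pericycle and stele in each library, on a log axis (points, medians; thick bars, interquartile range; thin lines, lowest to highest cell). Pericycle medians run from 18517 to 39220 in protoplasts and from 2580.5 to 3905 in nuclei, and the preparations begin at different minima.

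Against the other cells of the same library, pericycle cells lay on both sides in UMIs. The difference in median log2 UMIs was 0.90 in ctr3248V3, 0.39 in ical32hV3, 0.20 in ctr4h, −0.07 in ctr1 and −0.62 in ctr914. It was 0.16, 0.50 and 0.07 in Nuclei_1, Nuclei_2 and Nuclei_3. With 6 of 8 libraries above 0 (ical1, with under 10 pericycle cells, does not enter), the mean of 0.19 (SE 0.16) did not pass an exact two-sided sign-flip permutation test over libraries (p = 0.266, adjusted p = 0.282 over 17 types, of which 58.8% were called). The mean was 0.089 without ctr3248V3 and 0.31 without ctr914 (adjusted p = 0.0613 by the same permutation test), and −0.06 when only protoplasts of at least 20000 UMIs were kept.

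Relative to the median over types, the pericycle differed little between preparations. The log2 difference of protoplasts from nuclei was −0.12 (SE 0.14; limma adjusted p = 0.483, with 47.1% of 17 types called). That estimate rests on 5 protoplast and 3 nuclei libraries, and was −0.017 without Nuclei_2 and −0.21 without Nuclei_3.

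The position of pericycle cells within the UMI range of their library differed from library to library. Each library was cut into 4 UMI bins of equal cell number, from bin 1 with the fewest UMIs to bin 4. The largest group of pericycle protoplasts lay in bin 2 in ctr1 (45.7%) and ctr914 (41.3%), bin 3 in ctr4h (43.8%), ical1 (55.6%) and ical32hV3 (40%), and bin 4 in ctr3248V3 (55%). As a result, the pericycle took 21.9% of bin 3 of ctr4h, between 16710 and 31100 UMIs, but 5.02% of its bin 1. In ctr914 it took 14.2% of bin 2 and 2.09% of bin 4.

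In nuclei the UMI-rich bin 4 held more than an even part of the pericycle and of endodermis, and less than an even part of stele. Bin 4 held 33.6%, 40.6% and 27.5% of pericycle nuclei in Nuclei_1, Nuclei_2 and Nuclei_3, where an even spread would give 25%. It held 26.7%, 32.4% and 32.9% of endodermis nuclei and 20.5%, 21.4% and 20.4% of stele nuclei. Bin 4 was not always the largest: in Nuclei_3 bin 1 held more pericycle nuclei, at 29.8%. In Nuclei_1 bins 2 and 3 held more endodermis nuclei than bin 4, at 28.2% and 29.2%.

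**Figure D4:**
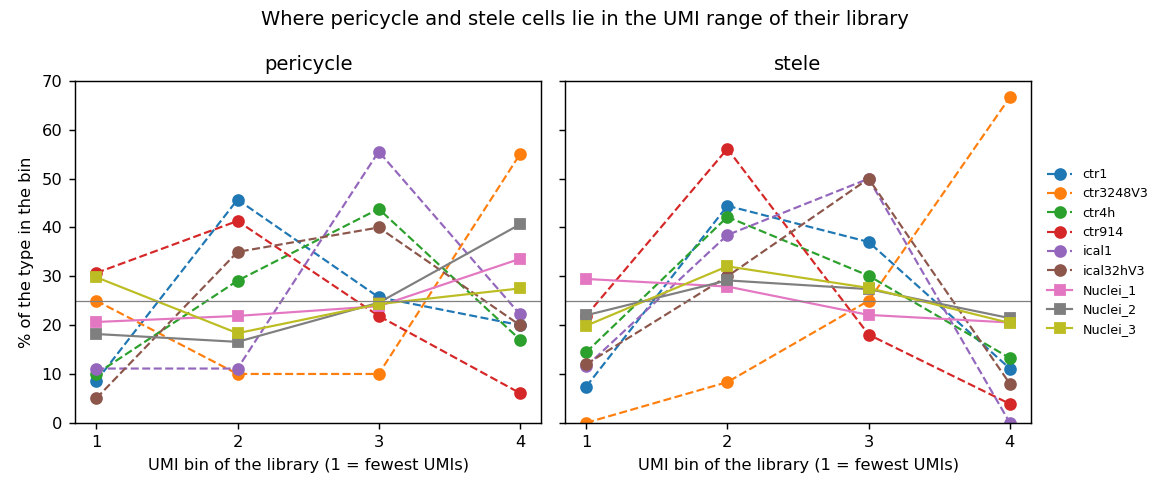
Percentage of pericycle cells (left) and stele cells (right) of each library that fall in each of 4 UMI bins of equal cell number (solid squares, nuclei; dashed circles, protoplasts; grey line, 25%). Bin 4 holds 27.5% to 40.6% of pericycle nuclei and 20.4% to 21.4% of stele nuclei.

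Set directly against stele, pericycle cells held more UMIs in 6 of 8 libraries. The log2 difference was 0.28, 0.50 and 0.12 in Nuclei_1, Nuclei_2 and Nuclei_3. In protoplasts it was 0.20 in ctr4h, 0.20 in ical32hV3, 0.04 in ctr914, −0.06 in ctr1 and −0.28 in ctr3248V3. The mean of 0.13 (SE 0.08) was not called by the exact sign-flip permutation test (p = 0.188, adjusted p = 0.375 over 4 comparisons with neighbouring layers), and was 0.071 without Nuclei_2. The means of 0.02 ± 0.20 in protoplasts (SD, n = 5) and 0.30 ± 0.19 in nuclei (SD, n = 3) did not differ by an exact two-sided permutation test at the threshold (p = 0.107, adjusted p = 0.321; the smallest p the 56 splits allow is 0.0179).

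The spread of UMIs within the pericycle was set beside that within stele, a description chosen after the values were seen and given with no test. The SD of log2 UMIs among pericycle cells was 0.75 in ctr1, 1.33 in ctr3248V3, 0.62 in ctr4h, 0.72 in ctr914 and 0.85 in ical32hV3, against 0.57, 0.83, 0.59, 0.61 and 0.63 among stele cells of the same libraries. In Nuclei_1, Nuclei_2 and Nuclei_3 it was 0.94, 1.02 and 1.02 against 0.79, 0.85 and 0.86. Pericycle exceeded stele in 8 of 8 libraries, by a mean of 0.19 (SE 0.05). Without ctr3248V3 the mean was 0.15. Stele itself was on the narrow side, ranking 11 to 15 of 17 types from the widest in these libraries. Against all other cells of the library, the pericycle SD was smaller in ctr1, ctr4h, ctr914 and ical32hV3 (other cells 0.99, 0.90, 1.03 and 1.02). It was larger in ctr3248V3 (other cells 1.08) and in Nuclei_1, Nuclei_2 and Nuclei_3 (0.85, 0.94 and 0.96). Among all 17 types the pericycle spread ranked 3, 6 and 4 from the widest in Nuclei_1, Nuclei_2 and Nuclei_3 but 2 to 13 in protoplasts, so the wide range was not shared by every library.

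In 7 of 8 libraries pericycle cells yielded fewer distinct genes than other cells, given their UMIs, though the call depended on the setting, as described below. Detected genes rise with UMIs, so a quadratic curve of log2 genes on log2 UMIs was fitted in each library, and each cell was given a gene residual, its log2 genes minus the curve. The median residual of the pericycle lay below that of the other cells by −0.124 in ctr4h, −0.081 in ctr3248V3, −0.053 in ctr914 and −0.051 in ical32hV3, and was level in ctr1 (0.006). In nuclei the difference was −0.076 in Nuclei_1, −0.055 in Nuclei_2 and −0.043 in Nuclei_3.

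The pericycle had the lowest gene residual of the 17 types in all 3 nuclei libraries and in ctr4h. The next type was at −0.034 in Nuclei_1 (21_endodermis), −0.022 in Nuclei_2 (14_Columella), −0.042 in Nuclei_3 (5_Atrichoblast) and −0.054 in ctr4h (17_Stele). In Nuclei_3 the pericycle and the next type were therefore almost equal. In ctr914, ctr3248V3, ical32hV3 and ctr1 the pericycle ranked 3, 4, 5 and 9 from the lowest.

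The mean difference from other cells over 8 libraries was −0.060 (SE 0.013), or 0.959 times as many genes, with 7 of 8 libraries below 0. It passed the exact two-sided sign-flip permutation test (p = 0.0156, adjusted p = 0.0379 over 17 types). Such calls were common, since 47.1% of types passed, 23.5% in the same direction, so a call is not particular to the pericycle. The call was lost without any 1 library other than ctr1 (adjusted p 0.0531 to 0.0759, means −0.062 to −0.051). With 7 pericycle values the smallest p of this permutation test is 0.0156, against 0.00781 with 8. The test is thus coarser, and a lost call need not mean that the mean rests on that library. Without ctr1 it was kept (adjusted p = 0.0443 by the same permutation test). Leaving out ical1, which has no pericycle value, altered the adjusted p through the other types alone. Within a UMI window the mean was −0.055 and the call was lost (adjusted p = 0.133 by the same permutation test). Only 6 libraries had 10 pericycle cells there, so the exact p could not go under 0.03125 before adjustment. That loss therefore does not show a smaller shortfall. With genes after the authors' SCTransform correction, the call was lost as well (−0.027, adjusted p = 0.555 by that permutation test). Those genes were taken with no UMI curve, so they are not compared at equal UMIs. In ctr914 their median was 4517 in pericycle and 5362 in other cells, with median UMIs of 18821 and 28989.5.

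The mean shortfall by the fitted curve was close in protoplasts and nuclei. It averaged −0.061 ± 0.047 in protoplasts (SD, n = 5) and −0.058 ± 0.016 in nuclei (SD, n = 3). The residual itself differed between preparations by 0.003 (SE 0.027; limma adjusted p = 0.915), a test in which 5.88% of types were called. For SCTransform genes, with no UMI curve fitted, the difference was −0.048 (SE 0.076). For genes within a UMI window it was −0.048 (SE 0.040). An equal shortfall in both preparations is therefore not shown.

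**Figure D5:**
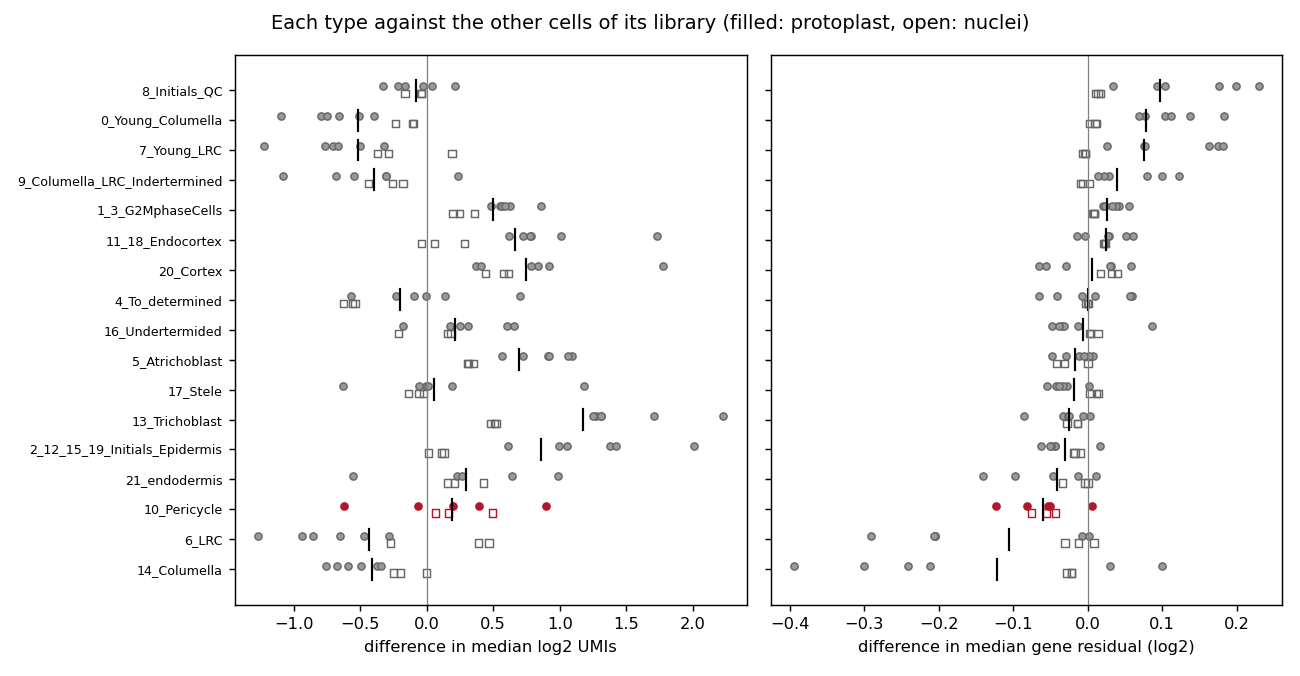
Each named type against all other cells of its library, as the difference in median log2 UMIs (left) and in median gene residual, log2 genes at equal UMIs (right); 1 point per library with at least 10 cells of the type (filled, protoplasts; open, nuclei), and a bar at the mean. Pericycle points, in red, lie on both sides of 0 for UMIs, and 7 of 8 lie below 0 for genes.

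Gene counts within a UMI window need no fitted curve, and differ in size from the residuals. Among nuclei of 2000 to 4000 UMIs, the median was 1864 genes in 153 pericycle nuclei of Nuclei_1 against 1935 in other nuclei. It was 1915 against 1928 in Nuclei_2, a smaller gap, and 1867.5 against 1923.5 in Nuclei_3. Among protoplasts of 20000 to 40000 UMIs it was 4776.5 against 5217 in ctr4h (100 pericycle cells) and 5217 against 5532.5 in ctr914 (120 pericycle cells). In ctr1 the gap was small, at 5769.5 against 5806 (14 pericycle cells), with median UMIs of 28704 and 27232. The remaining protoplast libraries held under 10 pericycle cells in the window. Depth was not equal within the window in ctr4h, where the median UMIs were 26432.5 in pericycle and 28657 in other cells, whereas in Nuclei_2 the pericycle median of 2862 UMIs exceeded that of other nuclei, 2726.

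Gene residuals were below those of stele in each nuclei library. The differences were −0.087, −0.064 and −0.045 in Nuclei_1, Nuclei_2 and Nuclei_3. In protoplasts they were −0.082 in ctr3248V3, −0.058 in ctr4h, −0.013 in ical32hV3, −0.006 in ctr914 and 0.033 in ctr1. The mean of −0.040 (SE 0.015), below 0 in 7 of 8 libraries, had an exact sign-flip permutation p of 0.0391 and did not pass after adjustment over the 4 comparisons (adjusted p = 0.156). The mean was −0.0050 within the UMI window (adjusted p = 0.812 by the same exact permutation test). It was −0.0071 with SCTransform genes, with no UMI curve fitted (adjusted p = 0.859 by that permutation test). The window left out ctr3248V3 and ical32hV3, with under 10 pericycle cells there, and its depth was unequal. In ctr1 window medians were 5769.5 genes at 28704 UMIs in pericycle and 5417.5 at 23285.5 in stele. In ctr914 pericycle was also above stele, at 5217 against 5096.5 genes. Pericycle was below stele in each nuclei library and in ctr4h, where it held fewer UMIs (26432.5 against 29180.5). Protoplasts and nuclei did not differ at the threshold in the residual difference from stele (0.04, exact permutation p = 0.232, adjusted p = 0.348).

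From endodermis, the layer outside it, the pericycle did not differ at the threshold. Pericycle minus endodermis averaged −0.10 in log2 UMIs (SE 0.11; exact sign-flip permutation p = 0.391, adjusted p = 0.516) and −0.016 in gene residual (SE 0.021; p = 0.516, adjusted p = 0.516). Without ctr1 the UMI difference was −0.018, and without ctr4h the residual difference was −0.0043. Gene residuals were lower in the pericycle in all 3 nuclei libraries, by −0.040, −0.054 and −0.038, and in ctr4h (−0.096) and ctr914 (−0.058). They were higher in the 3 protoplast libraries with few pericycle cells, at 0.053 in ctr1, 0.060 in ctr3248V3 and 0.047 in ical32hV3.

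The pericycle held a larger share of UMIs than of cells in nuclei, whereas protoplast libraries varied. It held 9.23%, 5.25% and 4.26% of the UMIs of Nuclei_1, Nuclei_2 and Nuclei_3, against 7.81%, 4.10% and 4.04% of their nuclei. In ctr4h and ctr914 it held 11.2% and 5.56% of UMIs against 12.5% and 8.60% of cells. In ctr1 it held 0.873% of UMIs against 1.06% of cells. The shares were almost level in ical1 (0.818% against 0.829%) and ical32hV3 (0.601% against 0.602%). In ctr3248V3 the order was the opposite, with 0.792% of UMIs from 0.531% of cells.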

How the data were processed

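Root-tip protoplasts and nuclei entered 10x Chromium 3' libraries, per the labels' protocols. The authors deposited raw counts per cell, both of UMIs and of genes found, with library, cluster and cell type. They also deposited per-cell sums after SCTransform correction, per the file headers, treated as a score and used only as an alternative. The submitters' processing notes name TAIR10, Seurat 4.0 and Cell Ranger 5.0.1, and the file headers give a joint clustering at resolution 0.6. For cell filters and doublets, the steps are not given in these sources. The table has 33875 entries, of which 1085 repeats in ical1 were left out. The grass table was not used here.

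The library is the replicate. Nuclei libraries were matched to samples by name, whereas the protoplast library names show only their group. For shares, cells per type entered edgeR 4.0.16's robust quasi-likelihood test without a dispersion trend, with total cells as library size. Medians of types with at least 10 cells in a library entered limma 3.58.1 (robust eBayes). Both were fitted over all 17 types. Within-library differences were tested by exact sign-flip permutation, and values compared between preparations by exact permutation, with numpy 2.4.6 and scipy 1.17.1. P-values were adjusted by Benjamini-Hochberg, with a threshold of 0.05, and are two-sided. Log2 odds had 0.5 added to both counts. Names follow clusters of the same cells, so UMIs and genes are not independent of them. Members and lists were chosen with earlier results of these data known. All results name the pericycle, with stele and endodermis as neighbours and other types only beside it in rank. The tests were checked on simulated data with the same dispersion of cell counts in both preparations. That check does not cover the unequal spread of the pericycle (SD of log2 odds 2.07 in protoplasts, 0.58 in nuclei). Alternatives were DESeq2 1.42.0, other scalings, filters, depth corrections and leaving out each library.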

Additional observations from a re-analysis of the deposited data

Results flagged for a closer look

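In 10 sets of protoplast values tested for a library far from the rest, 2 stood out, and chance alone gives about 1 in 20. The difference of pericycle from endodermis in median log2 UMIs was −0.70 in ctr1, far below the other 4 protoplast libraries (−0.09 to 0.12). It rests on 35 pericycle and 26 endodermis cells. The SD of log2 UMIs among pericycle cells was 1.33 in ctr3248V3, above 0.62 to 0.85 in the other 5, and rests on 20 cells.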

How the results depend on the processing

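Of 253 recomputed values, 206 kept their direction and their side of the threshold, or stayed within 1.5 times for a count. The pericycle share fold was −1.17 to −0.012 with 1 library left out, −2.83 without ctr4h and ctr914, and 0.060 with the 4 protoplast libraries that share barcodes with nuclei. The last set also turned the log2 odds of pericycle against stele to 0.23, which ranged from −0.48 to 0.19 with 1 library left out. With protoplasts of at least 20000 UMIs, the UMI difference was −0.065 from other cells and 0.076 from endodermis. The gene residual from other cells was −0.061 in protoplasts only (where the exact permutation test over 5 libraries cannot go under p = 0.0625). It was −0.050 without ctr4h and ctr914, and −0.069 to −0.051 with 1 library left out. In the UMI window the difference was −0.055, and the exact permutation test over 6 libraries cannot go under p = 0.03125. With SCTransform genes, compared with no UMI curve or window, it was −0.027. Between preparations the difference was −0.048 in the window, −0.048 with SCTransform genes and −0.012 to 0.021 with 1 library left out. Pericycle minus endodermis was 0.0011 in protoplasts only, and pericycle minus stele between preparations was −0.044 with SCTransform genes.

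Types called in relative UMIs numbered 8, and 5 against the median over all cells. In the limma gene residual test they numbered 1, but 4 with a spread for each preparation, 3 with a straight line, 2 with SCTransform genes, 0 in the window (2 at unadjusted p under 0.05) and 0 to 3 with 1 library left out, where each 0 had 3 at unadjusted p. Against other cells by the sign-flip permutation test, 8 were called in gene residual, but 0 in the window and 0 in protoplasts only (5 at unadjusted p in both), and 3 to 6 with 1 library left out. In UMIs 10 were called, and 0 in protoplasts only (10 at unadjusted p). The causes were not tested.

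The barcode-sharing set, the set without ctr4h and ctr914, the SCTransform genes, a curve fitted without pericycle cells, the split of ctr1 by suffix and the comparison of UMI spread were chosen after seeing the data. No paired analysis was possible because the protoplast library names carry no replicate number. Libraries with 9 to 35 pericycle cells limit the medians.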
